A study of Mus musculus with 15 samples.

Results

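Collagens are proteins built from chains that wind around each other. Most are secreted, while a few are transmembrane, and collagens form most of the fibrous matrix between the cells of the heart. The collagen genes were taken as every gene whose symbol reads Col, a number, the letter a and a number, after the accession of each non-control probe on the array had been matched to RefSeq. This gave 42 genes with 70 probes, of 18350 genes that could be named. Each gene is described by its probe of highest mean signal. A transcript was tested where its probe was well above background, by the scanner software's own flag, on at least 3 of the 15 arrays. Of the 42 genes, 35 were tested, and 29 of these were well above background on every array. The other 7 were not tested. Col10a1, Col17a1, Col19a1, Col28a1 and Col6a5 were not well above background on any array, and Col24a1 and Col9a1 were so on 1 array each. Col6a3 and Col12a1, which the same naming rule covers, had no matched probe and were not analysed here.

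The study asked whether sex changes how the heart responds to methamphetamine (meth), a stimulant. C57BL/6 mice, young adults at the start, received an intraperitoneal injection once a week for 5 months, either meth hydrochloride raised stepwise to a final 40 mg/kg or sterile phosphate-buffered saline (PBS), in which the meth was dissolved. There were 4 males and 4 females in the meth groups and 4 males and 3 females in the PBS groups. RNA from heart tissue of each of these mice was labelled with Cy3 and hybridised to its own 1-colour Agilent array. In each male group 2 mice came from a second experiment (trial 2) that used only males. The titles of the samples put all females in trial 1, while their source names give trial 2 for female PBS mouse 3 and female meth mice 3 and 4. Levels are given as log2 of the background-subtracted signal minus the 75th percentile of the same array, so that 0 is the level of that percentile. Single genes were compared between arrays for 1 probe at a time, never between genes, and a gene is called where limma gave an adjusted p under 0.05 over the 28358 probes tested. The summed level of a gene list is the log2 of the summed normalised signals of its genes, so the brightest genes weigh most. The text lists male values in the order trial 1 mice 1 and 2, then trial 2 mice 1 and 2, and female values in the order of their replicate numbers, which the plots use.

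Type I and type III collagens (Col1a1, Col1a2, Col3a1) make up the thick and thin fibrils between the muscle cells of the heart, and type V chains sit inside these fibrils and set their width. Type IV chains form the sheet of the basement membrane around muscle cells and capillaries, type VI forms beaded filaments close to cells, type VIII forms short-chain networks, and the FACIT collagens attach to the surface of fibrils. Fibroblasts make most of the fibrillar chains, and they make more of them when a heart scars. The chains are hydroxylated, trimmed and cross-linked by separate enzymes before they become a fibril.

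The sequences ahead of 5 genes are shown because the results below turn on these genes. Col5a3 fell with meth in both sexes, and Col1a2, Col3a1, Col8a1 and Col8a2 were each at their highest level of all 15 hearts in 1 male given meth. They are the 250 bases before the RefSeq start in build GRCm38.p6, read toward the gene, at chr9:20815068-20815317 on the minus strand for Col5a3, chr6:4505368-4505617 on the plus strand for Col1a2, chr1:45311288-45311537 on the plus strand for Col3a1, chr16:57754738-57754987 on the minus strand for Col8a1 and chr4:126286544-126286793 on the plus strand for Col8a2. Capitals mark the CCAAT box, which is written ATTGG where it lies on the other strand. They also mark the GC box with the letters GGGCGG, read on the opposite strand as CCGCCC, and neighbouring GC boxes may overlap.
Col5a3: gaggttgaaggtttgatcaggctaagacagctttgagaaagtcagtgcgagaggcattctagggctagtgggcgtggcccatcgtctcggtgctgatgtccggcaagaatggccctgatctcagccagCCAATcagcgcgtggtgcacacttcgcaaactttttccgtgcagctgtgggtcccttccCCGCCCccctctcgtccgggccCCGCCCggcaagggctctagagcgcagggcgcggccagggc
Col1a2: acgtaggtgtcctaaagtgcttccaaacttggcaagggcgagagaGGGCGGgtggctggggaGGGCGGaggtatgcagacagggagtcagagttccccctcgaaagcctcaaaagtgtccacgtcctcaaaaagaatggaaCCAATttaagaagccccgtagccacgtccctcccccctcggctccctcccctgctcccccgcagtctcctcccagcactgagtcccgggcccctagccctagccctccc
Col3a1: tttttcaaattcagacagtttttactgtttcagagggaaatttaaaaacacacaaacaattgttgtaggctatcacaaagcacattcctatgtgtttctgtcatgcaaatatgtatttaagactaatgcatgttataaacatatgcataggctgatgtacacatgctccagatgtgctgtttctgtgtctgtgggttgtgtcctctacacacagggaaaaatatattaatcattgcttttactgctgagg
Col8a1: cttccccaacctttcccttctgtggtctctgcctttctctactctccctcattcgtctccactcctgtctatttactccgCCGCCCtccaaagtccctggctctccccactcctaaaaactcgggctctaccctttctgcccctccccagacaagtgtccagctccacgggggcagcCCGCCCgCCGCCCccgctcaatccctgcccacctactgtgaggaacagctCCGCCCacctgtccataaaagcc
Col8a2: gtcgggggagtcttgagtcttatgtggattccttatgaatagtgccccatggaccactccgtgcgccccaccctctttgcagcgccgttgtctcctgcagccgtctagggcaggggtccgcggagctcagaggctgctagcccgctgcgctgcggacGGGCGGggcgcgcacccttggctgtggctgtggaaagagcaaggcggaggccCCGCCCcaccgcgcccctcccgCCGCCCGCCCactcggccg
The Col5a3 and Col1a2 windows each hold 1 CCAAT and 2 GC boxes, the Col8a1 and Col8a2 windows hold 4 GC boxes and no CCAAT, and the Col3a1 window holds neither. RefSeq promoters were found for 34 of the collagen genes on the array. Of these, 13 (38.2%) hold CCAAT within the 250 bases, as do 37.5% of the 27025 genes with a promoter, and 21 (61.8%) hold a GC box, against 35.4%. The starts of Col4a1, on the minus strand, and Col4a2, on the plus strand, lie 21 bases apart at chr8:11312826 and chr8:11312805, so that this pair runs head to head.

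All 6 cardiomyocyte markers (Myh6, Myl2, Tnnt2, Tnni3, Actc1, Ryr2) were well above background in every group. The 3 arrays on slide 4, those of female PBS mouse 3 and female meth mice 3 and 4, were brighter, with 75th percentiles of at least 438 against at most 403 on the other slides. Airway epithelial markers were called higher in the male meth hearts (6 of 8 tested, against 1.04% of all genes). Their summed log2 level lay between 5.05 and 7.40 there, against -0.30 to 0.01 in male PBS hearts. In females 1 of the 8 markers was called higher with meth (0.239% of all genes). Their summed level was 0.57 to 2.14 in female meth hearts and 0.97 to 1.81 in female PBS hearts. Their part in the collagen levels was not tested.

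Col5a3, which encodes a chain of type V collagen that is less widely expressed than Col5a1 and Col5a2, was the only collagen gene called between meth and PBS hearts. In males the PBS hearts read 1.89, 2.00, 1.94 and 1.83 and the meth hearts 1.30, 1.06, 0.85 and 0.70. In females the PBS hearts read 2.27, 2.44 and 2.57 and the meth hearts 1.19, 1.66, 2.07 and 1.44. In each sex every meth heart was below every PBS heart. The means were 1.92 ± 0.07 (SD, n = 4) and 0.98 ± 0.26 (SD, n = 4) in males, and 2.43 ± 0.15 (SD, n = 3) and 1.59 ± 0.37 (SD, n = 4) in females. In the fit of all arrays with limma, Col5a3 fell by 0.94 ± 0.16 (SE) on the log2 scale in males, or 1.92-fold lower (95% interval -1.29 to -0.59, adjusted p = 0.0161), and by 0.84 ± 0.17 in females, or 1.79-fold lower (-1.22 to -0.47, adjusted p = 0.0477). Averaged over the sexes it fell by 0.89 ± 0.12 (adjusted p = 0.00224 by limma). The exact two-sided permutation p was 0.0286 in males, the smallest that 4 against 4 hearts allow, and 0.0571 in females. The male and female responses differed by -0.10 ± 0.24 (SE) (adjusted p = 0.936 by limma), with a 95% interval of -0.61 to 0.41.

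In every pair of same-numbered meth and PBS hearts, which also shared a slide, Col5a3 was lower with meth. This follows from every meth heart lying below every PBS heart of its sex, so it adds no further support. Meth minus PBS was -0.59, -0.94, -1.09 and -1.13 in the 4 male pairs and -1.09, -0.79 and -0.50 in the 3 female pairs. Col5a3 was the 1 collagen gene of 35 that was lower in all 7 pairs, where 2.77% of the 14217 genes tested were lower in all 7, and no collagen gene was higher in all 7 (3.38% of genes). Within trial 1 the male change was -0.77 ± 0.22 (SE) and within trial 2 it was -1.11 ± 0.22, each from 2 hearts against 2. With the replicate number as a block the female change was -0.79 (adjusted p = 0.0773 by limma) and no longer passed the threshold, and it passed in only 1 of the 15 fits that left out 1 array each, the fit without female meth mouse 3 (adjusted p = 0.0173 there and 0.0536 to 0.186 in the others). The male call was lost without male meth trial 1 mouse 2, male meth trial 2 mouse 2, male PBS trial 1 mouse 2 or either trial 2 PBS male, with the change between -0.95 and -0.88 and an adjusted p of 0.0545 to 0.0671. A second Col5a3 probe was well above background on only 6 arrays and gave a male difference of -0.19 (adjusted p = 0.83) and a female difference of -0.12 (adjusted p = 0.946 by limma).

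Of 5 adipocyte markers, 4 were tested (Adipoq, Plin1, Cidec, Retn), and their log2 fold changes were all above 0, with medians of 1.08 in males and 1.31 in females. None was called in either sex alone by limma, and 2 were called higher in the mean response of both sexes (1.39% of genes). At an unadjusted p under 0.05, 3 were higher in males (7.34% of genes) and 4 in females (4.44%). Their summed level ranged from 3.15 to 5.78 in male meth hearts and 2.52 to 4.50 in male PBS hearts, and from 3.90 to 4.67 in female meth hearts and 2.74 to 3.34 in female PBS hearts. The male ranges overlap and the female ranges do not. Their part in the fall of Col5a3 was not tested. In RNA from heart tissue, fewer cells of a type and less RNA per cell cannot be told apart.

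**Figure D1:**
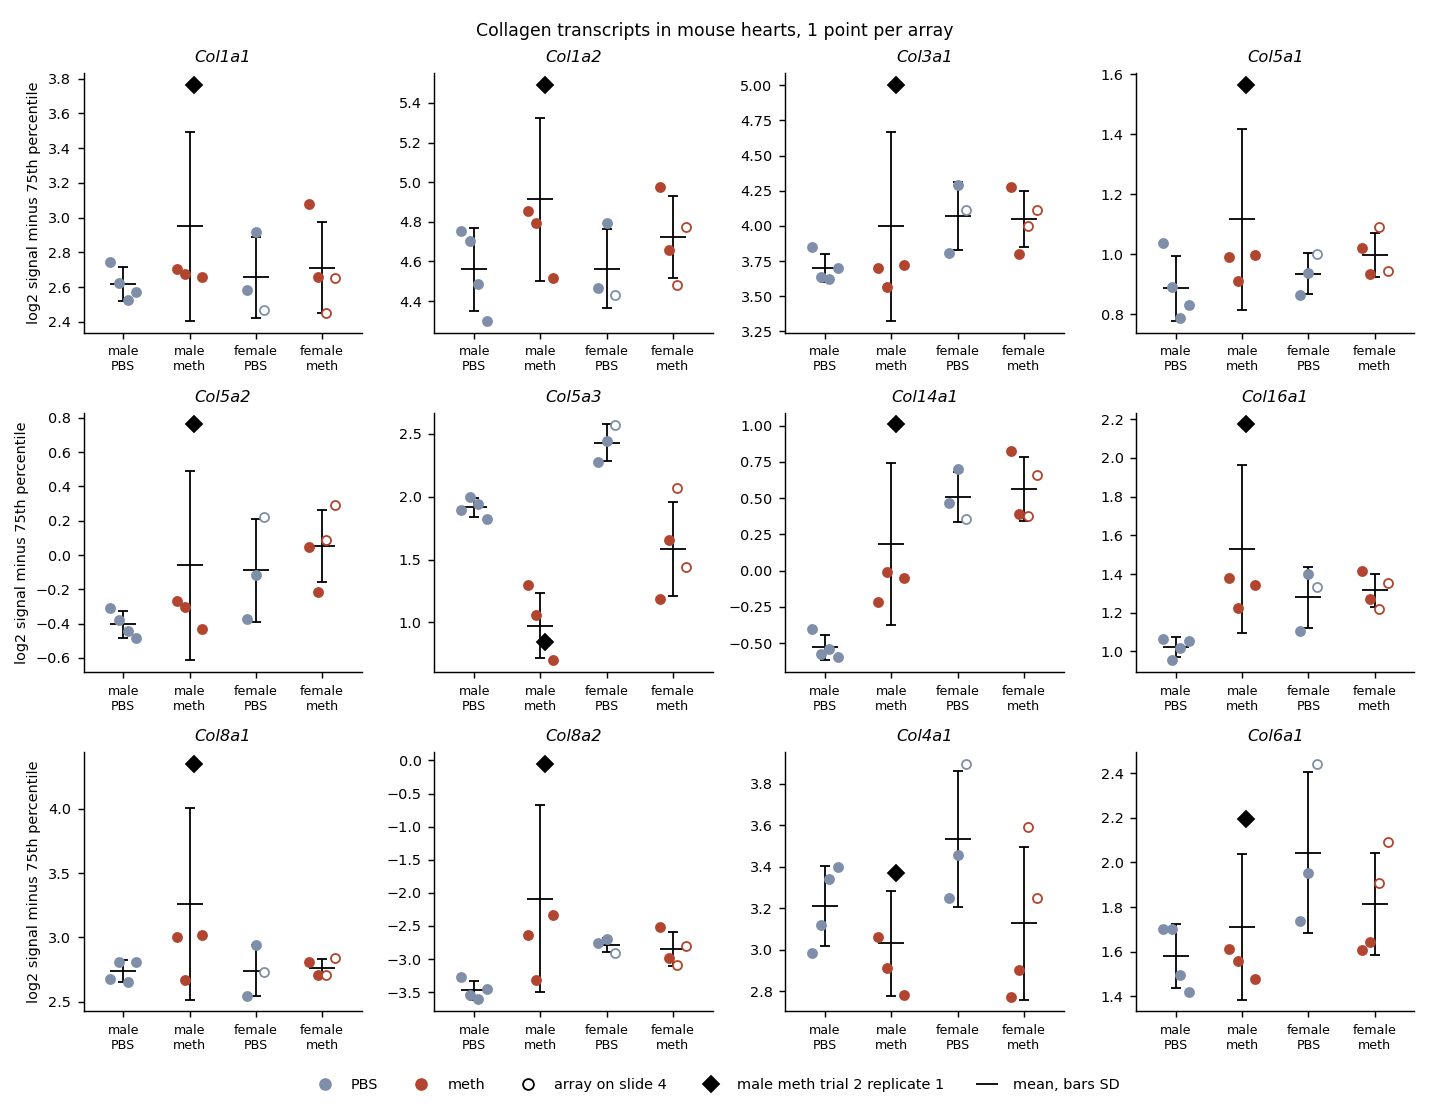
Level of 12 collagen genes (log2 signal minus the array's 75th percentile, vertical axis, scaled for each gene) in the 4 groups, 1 point per heart, with the group mean and SD. For Col5a3 every meth heart lies below every PBS heart of its sex, while for Col1a1, Col3a1, Col8a1 and Col8a2 1 male meth heart (black diamond) lies far above the other 3.

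In males no collagen gene was called higher with meth by limma at an adjusted p under 0.05, where 1.04% of genes were, and 1 of 35, Col5a3, was called lower, where 0.295% of genes were. At an unadjusted p under 0.05, 4 were higher (7.34% of genes) and 1 lower (5.84%). The methods' t-test called none after adjustment. At its unadjusted threshold the paired form gave 3 higher and 1 lower (6.86% and 10.3% of genes) and the unpaired form 1 and 1 (7.21% and 7.83%). The 4 higher at the unadjusted threshold in limma were Col8a2, Col14a1, Col27a1 and Col16a1. The median log2 fold change over the 35 genes was 0.15, against -0.02 over all genes, and 22 of the 35 lay above 0 and 13 below, against 44.9% and 55.1% of all genes. When male meth trial 2 mouse 1 was left out of the fit, the median was -0.01. For the mean of the other 3 male meth hearts minus the male PBS mean, the median was 0.03, against -0.007 over all genes. Of the 35 genes, 18 then lay above 0 and 17 below. That heart was chosen after its values were seen, so these values describe the data and carry no test. Within trial 1 the median over the 35 genes was -0.01, with 16 of 35 above 0 (48.2% of all genes). Within trial 2 it was 0.25, with 26 of 35 above 0 (43.8%).

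In male meth trial 2 mouse 1, 16 of the 35 collagen genes (45.7%) were over 0.5 above the mean of the other 3 male meth hearts on the log2 scale, and 3.92% of all genes tested were. Only 1 collagen gene was under -0.5, against 5.99% of genes. Over the 29 collagen genes well above background on every array, 14 (48.3%) were over 0.5, against 2.48% of such genes. The median difference was 0.48 for the collagen genes and -0.05 for all genes. This heart was also the highest of all 15 hearts for 13 of the 35 collagen genes (37.1%), and for 6.35% of all genes. The threshold of 0.5 and the choice of this heart were made after its values were seen, so these counts describe the heart and carry no test. Among the other 14 hearts the largest such count was 9 of 35 (25.7%, against 11.4% of genes), in female PBS mouse 3 on the brighter slide 4.

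**Figure D2:**
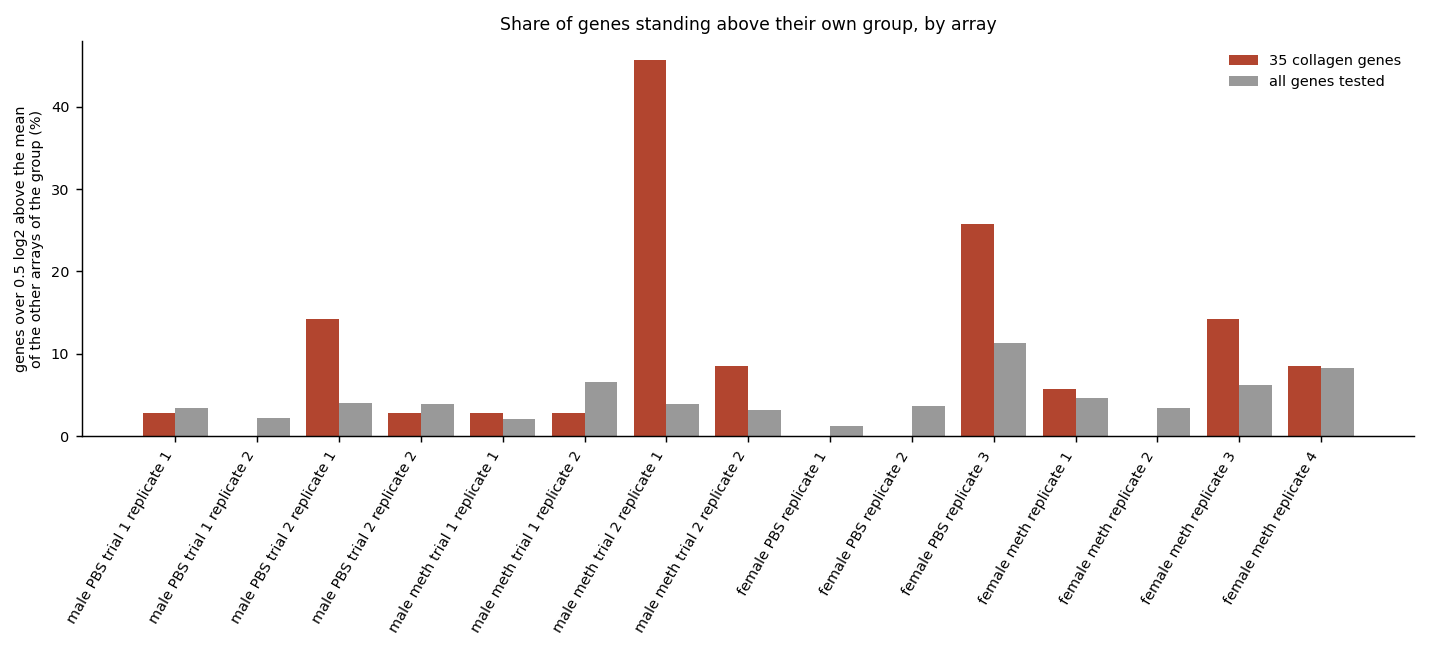
Share of genes (%, vertical axis) that lie over 0.5 on the log2 scale above the mean of the other hearts of the same group, for the 35 collagen genes and for all 14217 genes tested, by heart. Male meth trial 2 mouse 1 reaches 45.7% of the collagen genes and 3.92% of all genes.

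Of the fibrillar collagens, 7 of 10 tested were over 0.5 in that heart. Col1a1, the first chain of type I collagen, read 2.70, 2.67, 3.76 and 2.66 in the male meth hearts and 2.75, 2.63, 2.52 and 2.57 in the male PBS hearts. Trial 2 mouse 1, at 3.76, was 2.12-fold above the mean of the other 3, which lay within the range of the PBS hearts. Col1a2, the second type I chain, read 4.86, 4.80, 5.49 and 4.51 with meth and 4.75, 4.70, 4.49 and 4.30 with PBS. Col3a1, the type III chain, read 3.70, 3.57, 5.00 and 3.72 with meth and 3.85, 3.64, 3.63 and 3.70 with PBS, and the same heart was 2.53-fold above the other 3. The group difference was 0.33 ± 0.22 (SE) for Col1a1, 0.35 ± 0.19 (SE) for Col1a2 and 0.30 ± 0.24 (SE) for Col3a1, and none passed the threshold (adjusted p = 0.578, 0.476 and 0.667 by limma). Without that heart these differences were 0.04, 0.11 and -0.04.

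Of the type V chains that share fibrils with type I, Col5a1 read 0.99, 0.91, 1.56 and 1.00 with meth and 1.04, 0.89, 0.79 and 0.83 with PBS, and Col5a2 read -0.27, -0.30, 0.76 and -0.43 with meth and -0.31, -0.38, -0.45 and -0.49 with PBS. Both were highest in trial 2 mouse 1, while Col5a3 in that heart, at 0.85, lay inside the range of the other male meth hearts (0.70 to 1.30). Col2a1, the main fibrillar chain of cartilage, read -0.69, -0.72, 0.42 and -0.84 with meth and -0.44, -0.62, -1.02 and -0.87 with PBS, again with the single high value in trial 2 mouse 1. A second Col2a1 probe, well above background on every array, put that heart -0.10 from the other 3, so the 2 probes disagree. For Col1a1, Col3a1, Col5a1 and Col8a1 the second probes put it 1.33, 1.31, 0.66 and 1.45 above the other 3, and the remaining Col1a1 probe put it 1.72 above.

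Both type VIII chains were high in the same heart. Col8a1 read 3.00, 2.67, 4.35 and 3.02 with meth and 2.68, 2.81, 2.65 and 2.81 with PBS in males, and Col8a2 read -2.64, -3.31, -0.05 and -2.34 with meth and -3.28, -3.55, -3.60 and -3.46 with PBS. Col8a2 gave the largest difference of any collagen gene in males, 1.38 ± 0.45 (SE), or 2.61-fold (95% interval 0.41 to 2.36, adjusted p = 0.206 by limma). Its exact two-sided permutation p was 0.0571. Without trial 2 mouse 1 it was 0.74. In that heart Col8a2 was 6.55-fold and Col8a1 2.73-fold above the other 3. The difference for Col8a1 was 0.52 ± 0.24 (SE) (adjusted p = 0.398 by limma), and it was 0.17 without that heart.

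Col14a1 and Col16a1, FACIT collagens that bind the surface of fibrils, were higher in all 4 male meth hearts than in any male PBS heart. Col14a1 read -0.21, -0.01, 1.01 and -0.05 with meth and -0.40, -0.58, -0.54 and -0.60 with PBS, a difference of 0.71 ± 0.21 (SE) (adjusted p = 0.16 by limma, exact permutation p = 0.0286). Col16a1 read 1.38, 1.22, 2.17 and 1.34 with meth and 1.07, 0.96, 1.02 and 1.05 with PBS, a difference of 0.51 ± 0.15 (SE) (adjusted p = 0.176 by limma, exact permutation p = 0.0286). Such a separation was seen in these 2 of 35 collagen genes and in 5.82% of all genes, and the opposite one in 1, Col5a3, and in 5.76% of all genes. Neither passed the adjusted threshold, and without trial 2 mouse 1 the differences were 0.44 and 0.30. Col22a1, a FACIT collagen of tissue junctions, read -2.97, -2.85, -1.13 and -2.74 with meth and -2.59, -2.51, -2.76 and -2.90 with PBS, and only trial 2 mouse 1 left the PBS range upward.

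**Figure D3:**
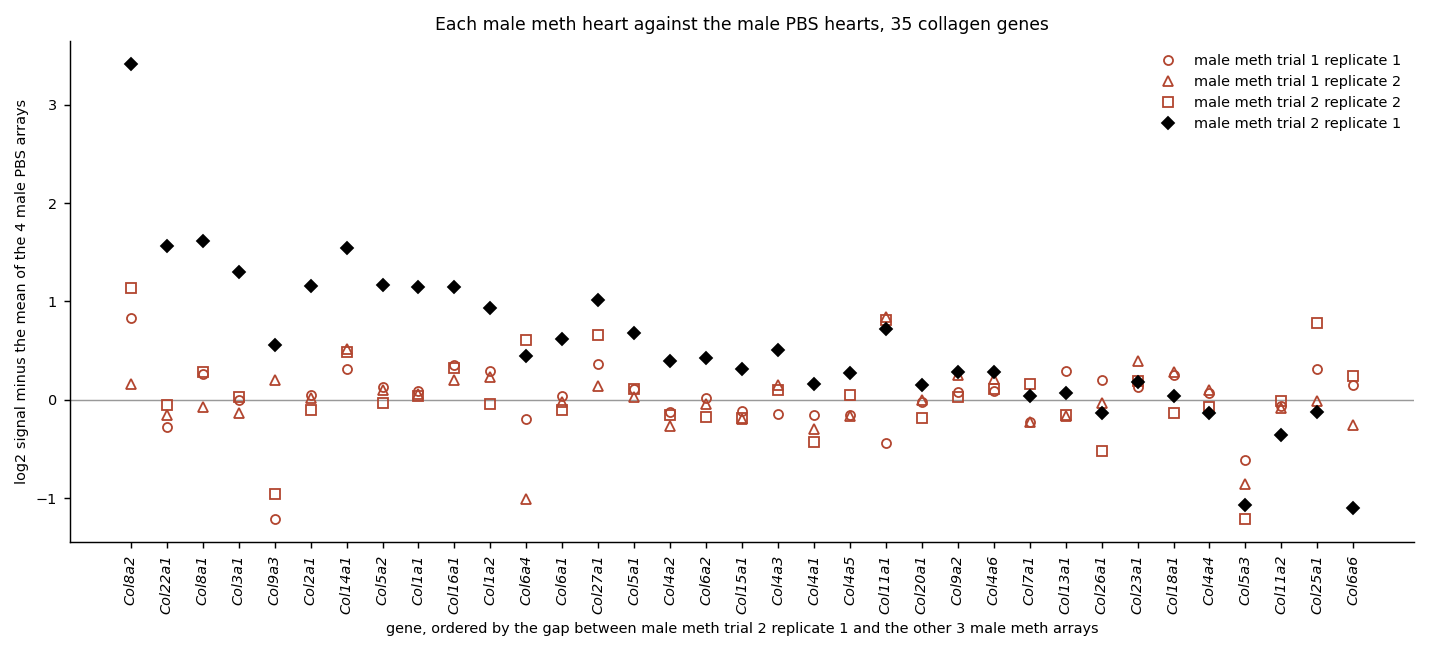
Each male meth heart minus the mean of the 4 male PBS hearts (log2, vertical axis) for the 35 tested collagen genes, ordered by how far trial 2 mouse 1 lay above the other 3 male meth hearts. The black diamonds of trial 2 mouse 1 lie above the open symbols for 15 of the 16 genes whose gap is over 0.5 (not Col6a4), and for Col5a3 all 4 hearts lie below 0.

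Among the basement membrane and beaded filament collagens, none was called. Col4a1 and Col4a2, the paired chains of the common type IV sheet, start next to each other, as given above. Col4a1 read 3.06, 2.91, 3.37 and 2.78 in the male meth hearts and 2.99, 3.12, 3.34 and 3.40 in the male PBS hearts. Col4a2 read 3.05, 2.91, 3.57 and 3.02 with meth and 2.87, 2.99, 3.43 and 3.42 with PBS. The groups overlap for both genes, and the differences were -0.18 ± 0.19 (SE) and -0.04 ± 0.17 (SE) (adjusted p = 0.756 and 0.954 by limma). Over the 6 type IV genes tested the male differences ran from -0.18 to 0.17. Col6a1, a chain of the beaded filaments, read 1.61, 1.56, 2.19 and 1.48 with meth and 1.70, 1.70, 1.50 and 1.42 with PBS, a difference of 0.13 ± 0.19 (SE). Of the 6 type IV and 4 type VI genes, 1 and 2 were over 0.5 in trial 2 mouse 1. Col15a1, a multiplexin of the basement membrane zone, read 0.48, 0.40, 0.90 and 0.40 with meth and 0.64, 0.69, 0.51 and 0.53 with PBS, so that trial 2 mouse 1 lay above the PBS hearts and the other 3 below them.

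In females no collagen gene was called higher with meth by limma (0.239% of genes were) and 1 of 35, Col5a3, was called lower (0.204% of genes). At an unadjusted p under 0.05, none was higher and 3 were lower (4.44% and 3.38% of genes), namely Col5a3, Col26a1 and Col27a1. The methods' t-test called none after adjustment. At its unadjusted threshold none was higher in either form (5.44% of genes when paired and 3.92% when unpaired), and 4 were lower when paired (3.46%) and 2 when unpaired (2.48%). The median over the 35 genes was -0.02, against 0.03 over all genes, with 16 above 0 and 19 below (58.6% and 41.4% of all genes). Female meth mouse 3 had 5 of the 35 (14.3%) over 0.5 above the others of its group, against 6.20% of all genes, and the other female meth hearts had 0 to 3. Col1a1 read 3.08, 2.66, 2.45 and 2.65 in the female meth hearts and 2.59, 2.92 and 2.47 in the female PBS hearts, and Col3a1 read 4.28, 3.80, 4.00 and 4.11 and 3.81, 4.29 and 4.11. The groups overlap for both. Col8a2 read -2.51, -2.99, -3.09 and -2.81 with meth and -2.75, -2.70 and -2.90 with PBS, a difference of -0.06 ± 0.48 (SE) with a 95% interval of -1.12 to 0.99. Col1a2 read 4.98, 4.66, 4.48 and 4.78 with meth and 4.47, 4.79 and 4.43 with PBS, Col5a1 1.02, 0.93, 1.09 and 0.94 with meth and 0.87, 0.94 and 1.00 with PBS, and Col5a2 0.05, -0.21, 0.09 and 0.29 with meth and -0.38, -0.12 and 0.22 with PBS. The differences of these 3 genes were 0.16, 0.06 and 0.14, and none was called. Col2a1 ranged from -0.51 to 0.09 in female meth hearts and from -0.51 to -0.05 in female PBS hearts, Col15a1 from 0.46 to 0.80 and from 0.75 to 1.14, and Col22a1 from -3.09 to -2.57 and from -2.98 to -2.85.

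Col26a1, which encodes a collagen with only short collagenous stretches, read -3.82, -3.75, -4.01 and -4.11 in the female meth hearts and -3.70, -3.30 and -3.29 in the female PBS hearts. All meth hearts lay below all PBS hearts, as for 2 of 35 collagen genes (2.8% of all genes), the other being Col5a3, and in no collagen gene did they all lie above (4.21%). The difference of -0.49 ± 0.13 (SE) did not pass the threshold (adjusted p = 0.13 by limma). In males Col26a1 read -4.15, -4.38, -4.48 and -4.87 with meth and -4.05, -4.24, -4.48 and -4.62 with PBS, and the groups overlap. Col6a6, a type VI chain, read -5.56, -6.99, -5.34 and -5.44 in female meth and -5.44, -4.88 and -4.83 in female PBS hearts. Its difference was -0.78 ± 0.41 (SE) (adjusted p = 0.535 by limma), and it was well above background on 1 of the 4 female meth arrays and 2 of the 3 female PBS arrays, and on 6 of 15 in all. Col4a1 read 2.77, 2.90, 3.59 and 3.25 with meth and 3.25, 3.46 and 3.90 with PBS, and Col4a2 read 2.67, 2.96, 3.41 and 3.19 and 3.04, 3.13 and 3.60. Within both groups the slide 4 hearts were among the highest, and the differences were -0.41 ± 0.21 (SE) and -0.20 ± 0.19 (SE) (adjusted p = 0.513 and 0.796 by limma). Col6a1 was highest in the slide 4 hearts as well, with 1.61, 1.65, 1.91 and 2.09 for meth and 1.74, 1.95 and 2.44 for PBS. Col8a1 read 2.81, 2.71, 2.71 and 2.84 with meth and 2.55, 2.95 and 2.73 with PBS. Col14a1 read 0.83, 0.39, 0.38 and 0.66 with meth and 0.47, 0.70 and 0.36 with PBS, and Col16a1 1.41, 1.27, 1.22 and 1.36 with meth and 1.10, 1.40 and 1.33 with PBS. The groups overlap for these 4 genes.

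**Figure D4:**
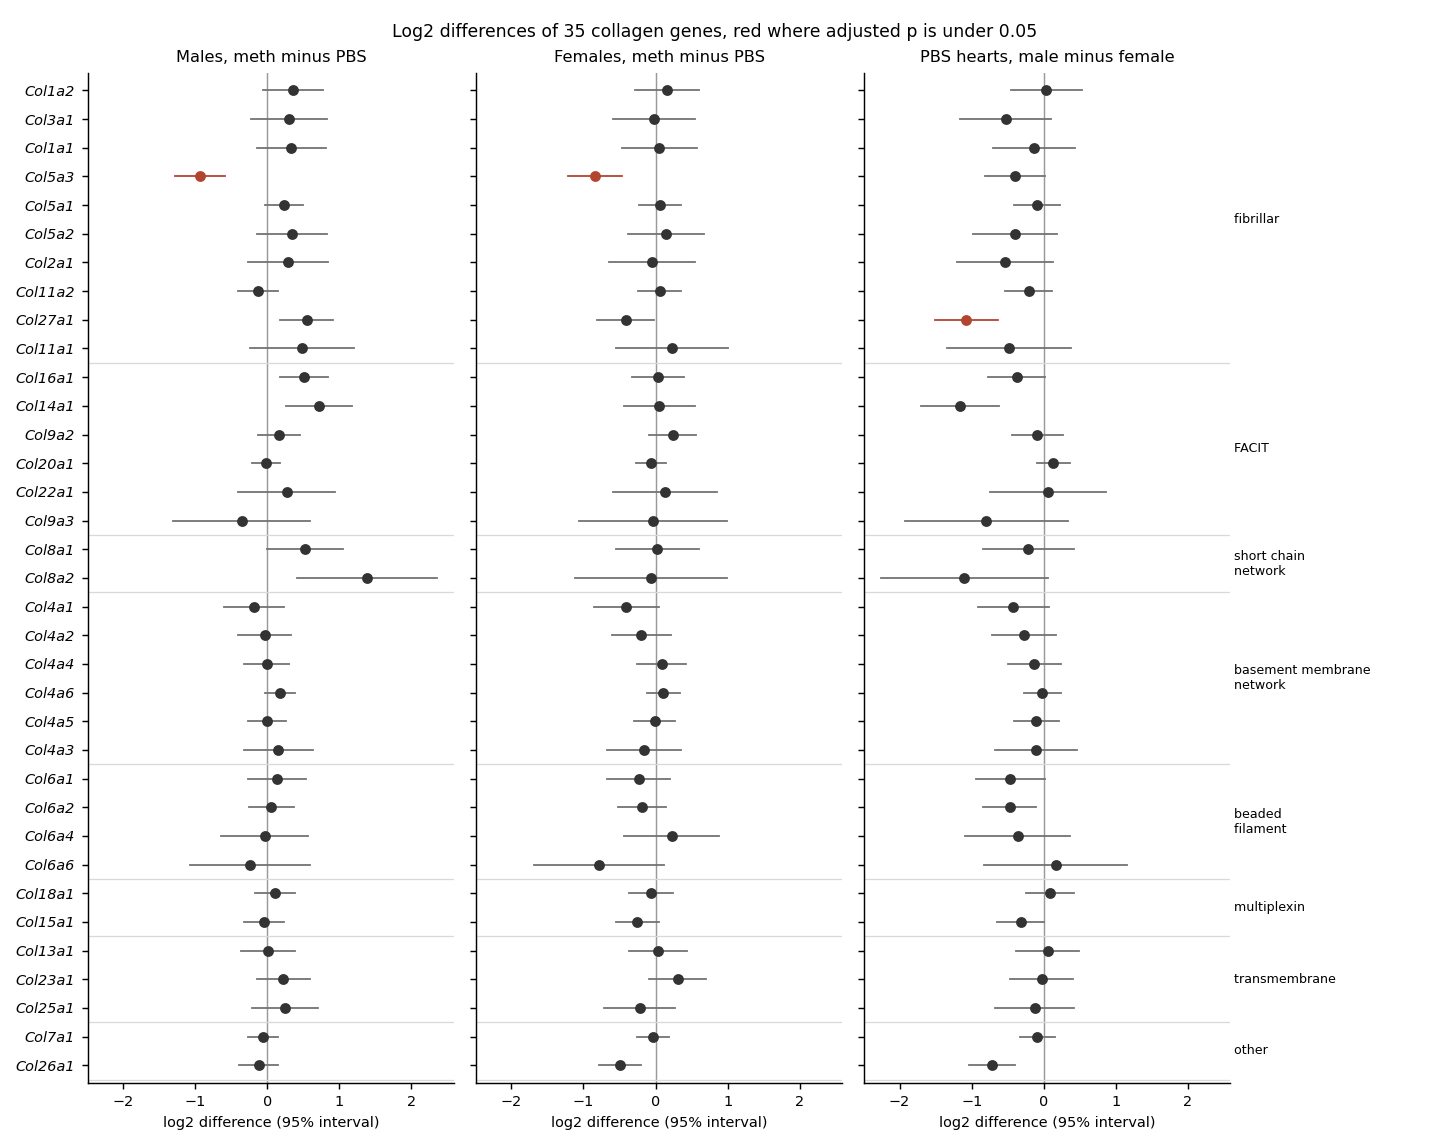
Log2 differences with 95% intervals for the 35 tested collagen genes, grouped by class, for meth minus PBS in males (left) and females (middle) and for male minus female PBS hearts (right). Col5a3 passed the adjusted threshold in both sexes (red), Col27a1 between the sexes in PBS hearts, and no other gene in these 3 comparisons.

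The difference between the male and the female response passed the threshold for no collagen gene, in limma, in either direction (0.127% and 0.0281% of genes did), and at an unadjusted p under 0.05 it was above 0 for 2 (3.59% of genes) and below 0 for none (4.54%). The 2 were Col27a1, a fibrillar collagen of cartilage and developing tissues (0.96 ± 0.25 (SE), adjusted p = 0.321), and Col8a2 (1.45 ± 0.66 (SE), adjusted p = 0.574). By its other probe, also well above background on every array, Col27a1 gave a difference of 0.30 between the responses (adjusted p = 0.809 by limma), with -0.04 in males and -0.34 in females. Of the 16 collagen genes with over 1 tested probe, 10 had probes of opposite sign in at least 1 sex. A rise in 1 sex is therefore not shown to exceed that in the other for any collagen gene. The difference was above 0 for 26 of the 35 genes and below 0 for 9 (42.2% and 57.8% of all genes), with a median of 0.20, against -0.04 over all genes, and of 0.0046 without male meth trial 2 mouse 1. The mean response of both sexes was called for 0 collagen genes higher (1.39% of genes) and for 1 lower, Col5a3 (0.837%), with 2 higher and 2 lower at an unadjusted p under 0.05 in limma (7.58% and 5.13% of genes) and 21 of 35 above 0 (51.8%).

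Most collagen genes were lower in male than in female PBS hearts. Of the 35 genes, 29 were lower in males than in females and 6 higher (47.6% and 52.4% of all genes were), with a median of -0.21, against 0.01 over all genes. In 9 of the 35 (25.7%) every male PBS heart lay below every female PBS heart, against 8.0% of all genes, and in none every male heart lay above (8.62%). The 9 were Col5a3, Col6a1, Col6a2, Col8a2, Col14a1, Col15a1, Col16a1, Col26a1 and Col27a1. Col27a1 was the only one called by limma (0.317% of genes were called lower and 0.232% higher), and 4 were lower and none higher at an unadjusted p under 0.05 (6.89% and 8.43% of genes). Over the 29 genes well above background on every array, 24 were lower and 5 higher (44.4% and 55.6% of such genes), and 8 did not overlap (7.42%). The methods' t-test, unpaired here, gave no collagen gene after adjustment, and 10 lower and none higher at its unadjusted threshold, where 6.71% and 7.2% of genes were. After adjustment this unpaired form gave few genes of any kind, with 0.0633% higher in male meth than in male PBS hearts, 0.0422% higher and 0.0281% lower in male than in female PBS hearts, and 0.141% higher and 0.295% lower in male than in female meth hearts, while both forms gave 0.0% in every other comparison and direction in which they were run.

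Col27a1 read -3.97, -3.45, -2.98 and -3.10 in male PBS hearts and -2.36, -2.56 and -2.93 in female PBS hearts, a difference of -1.08 ± 0.20 (SE), or 2.11-fold lower in males (95% interval -1.51 to -0.64, adjusted p = 0.0382 by limma, exact permutation p = 0.0571). The trial 1 males were the lowest. The group means, -3.38 ± 0.44 (SD, n = 4) and -2.61 ± 0.29 (SD, n = 3), lay closer together, since the fit adjusts the males for the trial and sets all females to trial 1. Without the trial term the difference was -0.76 (adjusted p = 0.263), and with the trial taken from the source names it was -0.79 (adjusted p = 0.154 by limma). The other Col27a1 probe gave -0.61 (adjusted p = 0.245 by limma). The call did not hold in 17 of 29 other limma settings, 10 of them fits that left out 1 array, and with normexp background correction the difference was -0.32. In meth hearts Col27a1 read -3.01, -3.24, -2.36 and -2.72 in males and -2.66, -2.95, -3.25 and -3.25 in females, and the sexes overlapped. Col14a1 was -1.17 ± 0.25 (SE) in male against female PBS hearts (adjusted p = 0.0675), with -0.40, -0.58, -0.54 and -0.60 against 0.47, 0.70 and 0.36, so that the lowest female value was above the highest male value. Col14a1 passed with the slide as a random block (-1.19, adjusted p = 0.0461) and without male meth trial 2 mouse 1 (-1.03, adjusted p = 0.0107 by limma). Col26a1 passed with the slide as a random block (-0.73, adjusted p = 0.0384), without the trial term (-0.92, adjusted p = 0.0465), with the trial from the source names (-0.88, adjusted p = 0.0195) and without female PBS mouse 1 (-0.85, adjusted p = 0.0335 by limma). The male PBS hearts enter both this comparison and the male response.

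Without the 3 slide 4 arrays the median difference between the sexes in PBS hearts was -0.22, and over trial 1 arrays alone it was also -0.22. Over all 29 alternatives this median ran from -0.31 to -0.087. Fibroblast markers ran the same way, with 0 of 8 above 0 in male against female PBS hearts and a median of -0.29, while 6 of 6 cardiomyocyte markers were above 0 with a median of 0.19. The summed fibroblast level lay between 4.77 and 4.86 in male PBS hearts and between 5.05 and 5.17 in female PBS hearts, with no overlap. Mesothelial markers had 0 of 4 above 0 and a median of -0.45, with sums of 1.82 to 2.29 in male and 2.41 to 2.69 in female PBS hearts. Airway epithelial markers summed to -0.30 to 0.01 in male and 0.97 to 1.81 in female PBS hearts, and endothelial markers had 1 of 6 above 0 and a median of -0.20. Activated fibroblast markers had 2 of 8 above 0 (median -0.56). Cartilage markers had 2 of 7 (-0.21), Schwann cell markers 1 of 3 (-0.06) and leukocyte markers 1 of 5 (-0.04). Adipocyte markers went the other way, with 3 of 4 above 0 (median 0.97), as did smooth muscle and pericyte markers, with 5 of 6 (0.12). By limma 1 cartilage marker was called higher in male than in female PBS hearts (0.232% of genes) and 1 airway marker lower (0.317%). The cartilage list ran from -0.72 to 1.63 and the airway list from -5.25 to 0.49. The part of these lists in the difference was not tested. In meth hearts no collagen gene was called between the sexes by limma (1.39% of genes higher in males and 1.41% lower), with none higher and 4 lower at an unadjusted p under 0.05, where 8.06% and 10.5% of all genes were. Of the 4, Col9a3 was well above background on none of the 8 male arrays and was tested only through female arrays, so its place among them follows from that filter, and the others were Col5a3, Col11a2 and Col26a1. Over the 29 genes well above background on every array, 2 were lower (10.1% of such genes). The methods' t-test, unpaired, gave none after adjustment, and 3 lower and none higher before it (10.6% and 5.65% of genes). Without male meth trial 2 mouse 1, Col14a1 was called lower in male meth hearts (-0.65, adjusted p = 0.0305 by limma). The median over the 35 genes was -0.12, against -0.01 over all genes, with 14 above 0 and 21 below (47.0% and 53.0% of all genes). The sexes did not overlap in 1 gene, Col26a1, lower in males (7.55% of all genes), and in none higher (4.23%).

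No gene that folds, modifies or joins collagen chains was called between meth and PBS hearts. Over 5 lists, 31 of 34 genes were matched and 29 tested. By limma none was called in males, in females or in the difference between them. At an unadjusted p under 0.05, 2 were higher and none lower in each sex. Of all genes, 7.34% were higher and 5.84% lower in males, and 4.44% and 3.38% in females. The medians of the 29 assembly genes were 0.05 in males and 0.07 in females. The lists hold the prolyl hydroxylases and their partners (9 tested), the lysyl hydroxylases and glycosyltransferases (5), the chaperones and export factors (6), the propeptide processing proteins (6) and the cross-linking enzymes (3). In the prolyl hydroxylase list 1 gene was called lower in male than in female meth hearts by limma (1.41% of genes were). The summed level of that list was 5.516 to 5.526 in female meth hearts and 5.408 to 5.414 in female PBS hearts, with no overlap. In males it was 5.25 to 5.38 with meth and 5.32 to 5.38 with PBS. Serpinh1, the collagen chaperone, differed by -0.26 between male groups (adjusted p = 0.436) and by 0.04 between female groups (adjusted p = 0.963 by limma). In male meth trial 2 mouse 1, 4 of the 29 were over 0.5 above the other 3 male meth hearts, against 3.92% of all genes. The list of cross-linking enzymes held 2 of these, Loxl3 (-1.36 against -3.02 to -2.51) and Loxl1 (2.56 against 1.75 to 2.17), and Adamts2, which trims the amino-terminal propeptide of fibrillar collagens, read 3.83 against 2.98 to 3.09. The fourth was P3h2, a prolyl hydroxylase of basement membrane collagens, at 0.59 above the others.

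Of 8 proteoglycans that coat fibrils 7 were tested and none was called in males or females by limma, with medians of 0.15 and 0.05. In males 3 were higher at an unadjusted p under 0.05 (7.34% of genes). Fmod, which binds type I fibrils, read 0.78 in male meth trial 2 mouse 1, -0.62 to -0.15 in the other 3 and -1.16 to -0.89 in male PBS hearts. Of 10 collagen receptors 7 were tested and none was called by limma, with medians of 0.11 and -0.15. In females 2 were lower at an unadjusted p under 0.05 (3.38% of genes). The integrin subunit Itga11 read 1.59 in that heart against 0.33 to 0.60 in the other 3, and Mrc2, which takes up collagen fragments, read -0.39 against -1.46 to -1.03.

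Markers of activated fibroblasts were high in the same heart. Of 8 tested, 7 were over 0.5 above the other 3 male meth hearts (3.92% of all genes were), with a median of 1.92, and none was called in males by limma. In the male comparison 8 of 8 lay above 0 (44.9% of all genes), with a median of 1.16. At an unadjusted p under 0.05, 4 were higher (7.34% of all genes). Postn, a matrix protein that rises when hearts scar, read 3.52 in trial 2 mouse 1, 1.53 to 1.89 in the other 3 and 1.02 to 1.28 in male PBS hearts. Comp, which links fibrils, read 4.54, 2.38 to 2.80 and 1.46 to 1.70 in the same order. Cilp read 3.05, 0.15 to 0.73 and -0.57 to -0.24. All male meth hearts lay above all male PBS hearts for these 3 and for Cthrc1 and Ltbp2, 5 of the 8 markers, and for 5.82% of all genes. The summed level of the 8 markers was 5.88 in trial 2 mouse 1, 3.69 to 4.07 in the other 3, 3.06 to 3.29 in male PBS hearts, 3.38 to 3.91 in female meth hearts and 3.35 to 3.55 in female PBS hearts. Resting fibroblast markers were over 0.5 in trial 2 mouse 1 for 3 of 8 (Mfap5, Pi16, Fbln1), against 3.92% of all genes. Their summed level was 5.45 there and 4.79 to 4.88 in the other 3 male meth hearts. It was 4.77 to 4.86 in male PBS, 4.94 to 5.14 in female meth and 5.05 to 5.17 in female PBS hearts. The part of any cell type in the collagen levels of that heart was not tested.

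Markers of the tissues that share some collagens with the heart gave these values. The markers of cartilage, where Col2a1 and Col9a2 are made, had a summed level of 2.70 in trial 2 mouse 1 and 2.82 to 3.03 in the other male meth hearts, with 1 of 7 tested markers over 0.5 above the others, and Matn1, a cartilage matrix protein, was well above background on none of the 15 arrays. Their part in the Col2a1 level was not tested. Airway epithelial markers summed to 5.05 there and to 5.69 to 7.40 in the other male meth hearts. Smooth muscle and endothelial markers had median differences of 0.09 and 0.05 in that heart, with 0 of 6 over 0.5 in each list, and leukocyte markers had 0 of 5. Schwann cell markers had 0 of 3 over 0.5. Mesothelial markers had 0 of 4 over 0.5 in that heart. In male meth against male PBS hearts, however, their log2 fold changes were above 0 for 4 of 4, with a median of 0.62. Of these markers, 3 were higher at an unadjusted p under 0.05 (7.34% of genes), and none was called by limma. Their summed level was 2.41 to 3.18 in male meth hearts and 1.82 to 2.29 in male PBS hearts, with no overlap, and their part in the collagen levels was not tested.

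**Figure D5:**
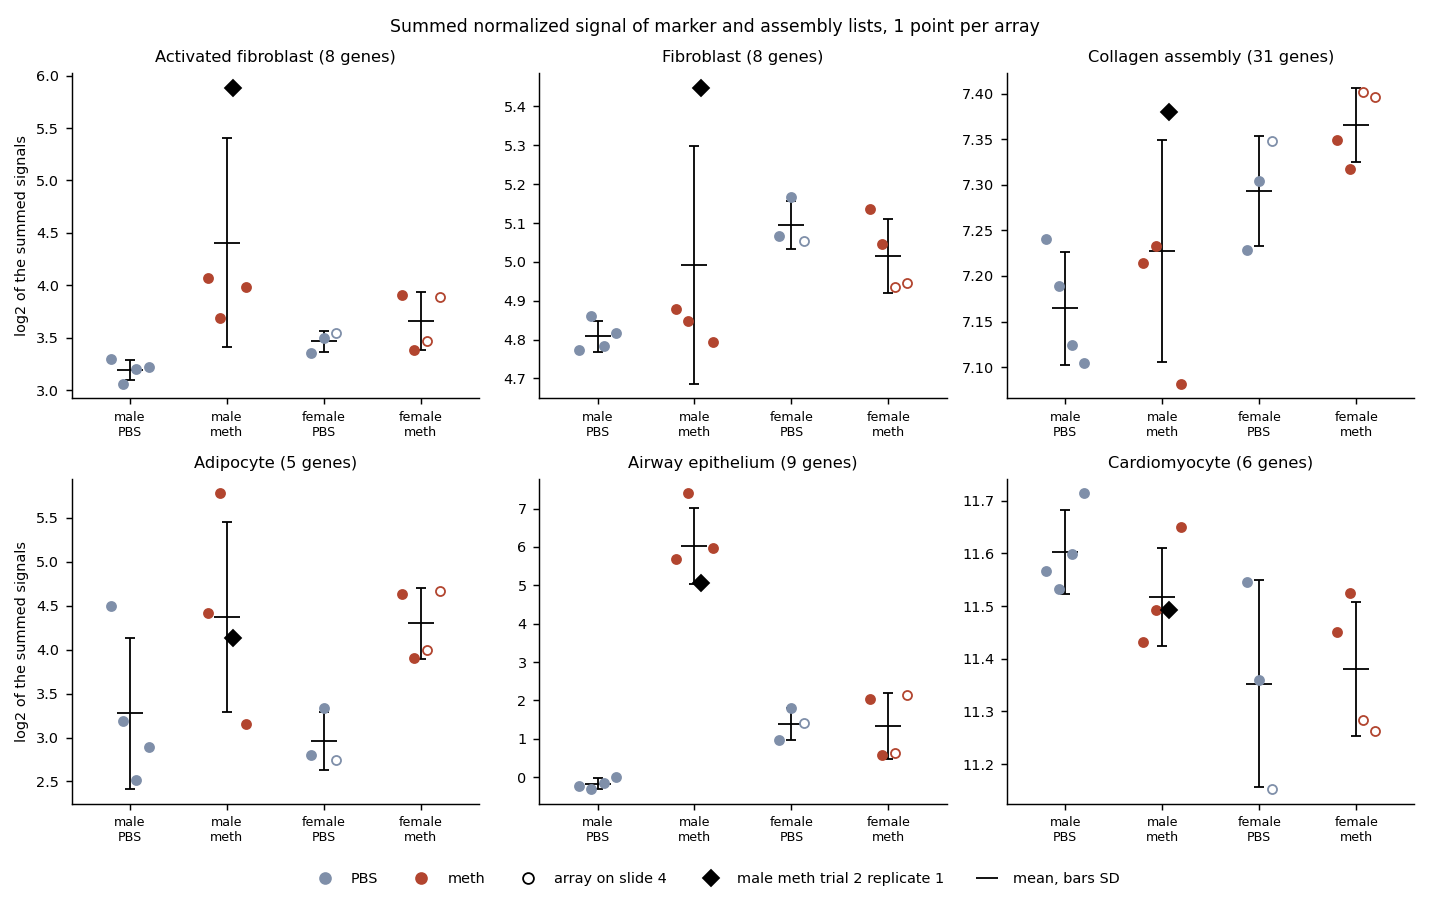
Log2 of the summed normalised signal of marker lists and of the collagen assembly genes (vertical axis, scaled for each list) in the 4 groups, 1 point per heart, with the group mean and SD. Male meth trial 2 mouse 1 (black diamond) is at 5.88 for the activated fibroblast list, where the other male meth hearts lie between 3.69 and 4.07.

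Of the 35 tested collagens, 6 were not well above background on every array, and their values are less certain. Col11a1 was well above background on 8 of 15 arrays, Col25a1 and Col6a6 on 6 each, Col6a4 on 10, Col26a1 on 13 and Col9a3 on 3, and Col9a3 on none of the 8 male arrays. None was called with meth in either sex. Col11a1 read -5.89, -4.61, -4.73 and -4.63 in the male meth hearts and -5.71, -5.20, -4.85 and -6.03 in the male PBS hearts. Male meth trial 2 mouse 1 stood over 0.5 above the other male meth hearts in Col1a1, Col1a2, Col2a1, Col3a1, Col5a1, Col5a2, Col27a1, Col9a3, Col14a1, Col16a1, Col22a1, Col4a2, Col6a1, Col6a4, Col8a1 and Col8a2, of which Col9a3 and Col6a4 were not well above background on every array. The remaining tested genes, Col4a3, Col4a4, Col4a5, Col4a6, Col6a2, Col7a1, Col9a2, Col11a2, Col13a1, Col18a1, Col20a1 and Col23a1, differed between meth and PBS hearts by -0.19 to 0.31 on the log2 scale in either sex, and none passed the threshold. The number of arrays limits the precision of all of these values.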

How the data were processed

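The authors hybridised Cy3-labelled heart RNA of 15 C57BL/6 mice to 15 Agilent 1-colour arrays. They deposited, per the file headers, the scanner output with a background-subtracted intensity for each spot. The headers name Feature Extraction 10.5.1.1, while the submitters' processing notes name version 9.1. A table of log2 values, likewise deposited by the authors, equals log2 of these intensities plus a constant for each array and served as an alternative.

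Here the processed intensity was put on the log2 scale and each array's 75th percentile subtracted. Control spots and outlier spots (45 to 88 per array) were left out, spots of a probe averaged, and probes kept that the software put well above background on 3 or more arrays (28358 of 41174). Between 61.3% and 71.4% of probes per array were well above background, and no spot was saturated. A probe was named through RefSeq by its accession, which named 26918 probes, and the gene's probe of highest mean signal was used. Terms for the 4 groups and for the trial, taken from the titles, were fitted to all arrays with limma 3.58.1 in R 4.3.3. The 6 contrasts were tested, with Benjamini-Hochberg adjustment over all tested probes and a threshold of 0.05, and the fit was tested on simulated data. Shares of all genes count the 14217 named genes whose chosen probe passed the filter. Single genes were also given an exact permutation test of the group means. Tables were handled with Python 3.11.15, numpy 2.4.6 and pandas 2.3.3.

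Hearts were paired here by replicate number, since neither the paper nor the sample titles name pairs. Each same-numbered meth and PBS pair shared a slide, and their deviations from the group means correlated at 0.26 to 0.66 over 23808 probes. Hearts of unlike number were not compared in this way, and each group mean spans several slides. The correlations therefore do not show that the hearts were paired. The methods' t-test was run paired and unpaired. Alternatives were another background correction (normexp, offset 50), quantile or median normalisation, the deposited log2 table, a floor, other filters, other uses of the trial and slide, the replicate block, the mean over probes and each array left out. Leaving out the slide 4 arrays was chosen after seeing the data. The collagen genes and the gene lists were chosen with earlier results of these data known.

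Values on every array are given for Col1a1, Col1a2, Col3a1, Col5a1, Col5a2, Col4a1, Col4a2, Col6a1 and Col8a1, for genes called in any contrast, for the 3 largest differences in males, in females and between their responses, and for genes with an outlying array. Other genes are named to give a range or to account for a count of 5 or fewer.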

Additional observations from a re-analysis of the deposited data

Results flagged for a closer look

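In each collagen gene and each group of 4 hearts, the highest and the lowest value were set against the other 3 with Dixon's test at its 95% critical value of 0.829. This made 105 tests, of which chance alone marks about 1 in 20, and 11 values were marked. Of these, 9 came from the same heart, male meth trial 2 replicate 1. In that heart Col1a1 read 3.76, Col3a1 5.00, Col5a1 1.56, Col5a2 0.76, Col2a1 0.42, Col14a1 1.01, Col15a1 0.90, Col16a1 2.17 and Col22a1 -1.13, and each lay above the other 3 male meth hearts. The tests are not independent, since the 9 genes share 1 heart. Col11a1 was low in male meth trial 1 replicate 1 at -5.89, and Col6a6 was low in female meth replicate 2 at -6.99. Neither Col11a1 nor Col6a6 was well above background on every array. No value was marked in male PBS hearts, and the 3 female PBS hearts were too few for the test.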

How the results depend on the processing

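Of 549 alternative values of the counts and medians, 492 stayed on the same side or within the spread (0.163, the SD of the mean collagen level within groups). The count of collagen genes called lower in males was 0 instead of 1 with normexp, trial 1 arrays only, trial 2 males only, the mean over probes and both t-tests, and 0 to 1 with 1 array left out. In females it was 0 instead of 1 with normexp, the median shift, no filter, no trial term, the trial from the source name, trial 1 arrays only, without the slide 4 arrays, with the replicate block, the mean over probes and both t-tests, and 0 to 1 with 1 array left out. The mean response of both sexes had 0 lower calls instead of 1 with trial 1 arrays only. Between the sexes in PBS hearts the count stayed at 1 without the trial term and with the trial from the source name, where Col26a1 was called in place of Col27a1, and it was 0 instead of 1 with normexp, quantile normalisation, the median shift, no filter, trial 1 arrays only and the unpaired t-test, 3 with the slide as a random block, and 0 to 1 with 1 array left out. In meth hearts it was 2 instead of 0 with the trial from the source name (Col11a2 and Col26a1), and 0 to 1 with 1 array left out. With 1 array left out the male median ran from -0.014 to 0.18 and the median difference between the responses from 0.0046 to 0.28, the lowest without male meth trial 2 replicate 1 in both, and the latter was -0.013 with trial 1 arrays only. The causes were not tested.

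The replicate block changed no other call of a collagen gene between meth and PBS hearts or between the responses, and it could not be fitted to the comparisons between the sexes, since each block holds 1 sex. Col5a3 was called in 22 of 31 other limma settings in males (adjusted p = 0.00393 to 0.463), in 7 of 30 in females (adjusted p = 0.0173 to 0.295) and in 29 of 30 for the mean response, with its change below 0 in each. Over 62 single-gene results and 1951 alternatives, 55 calls were lost and 69 uncalled values changed sign. Signals near background and 3 or 4 hearts per group limit what could be detected.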
